A study of Mus musculus with 2 samples.

Results

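The Hox genes of the mouse were followed in costal-cartilage-derived stem cells (CDSCs), once fresh from the rib and once after growth in culture. Members were the rows whose symbol reads Hox, a letter from a to d and a number, with no antisense names, which gave 39 of the 21849 genes listed. The study used CDSCs to rebuild an injured bone marrow niche and asked how they change when they are expanded. For its single-cell RNA sequencing the study names both the MobiDrop platform and a 10x 3′ kit. There were 2 libraries, 1 from primary cells and 1 from cells cultured to passages 2 to 3. Both came from costal cartilage of C57BL/6J mice in the first week of life that carried either CD45.1 or ZsGreen, digested with collagenase and sorted as CD45- CD51+ cells, that is, without a blood cell protein and with an integrin chain. The cultured cells had been grown in serum-containing medium. A captured transcript was counted once, by its unique molecular identifier (UMI), and levels are given as CPM, the count of a gene scaled to a library of 1e6 UMIs. The labels name bone marrow as the tissue of both libraries, and whether animals were pooled was not stated. The 13 chondrocyte markers summed to 90826 CPM in primary cells, against 1083 CPM after culture, with all 13 at least 4-fold lower. Among markers of other cell types, smooth muscle and pericyte genes summed to 355 and 2613 CPM, fibroblast genes to 3392 and 1529 CPM, tenocyte genes to 1883 and 134 CPM, skeletal muscle genes to 306 and 25.8 CPM, Schwann cell genes to 187 and 38.2 CPM and genes of Cxcl12-rich marrow stroma to 97.6 and 711 CPM. Osteoblast genes summed to 113 and 116 CPM, endothelial genes to 15.8 and 11.2 CPM, haematopoietic genes to 9.18 and 31.2 CPM, mast cell genes to 8.95 and 0.173 CPM and erythroid genes to 4.56 and 2.06 CPM. A sum follows the highest genes of its list. Median log2 ratios of cultured over primary CPM were 1.52 for smooth muscle and pericyte, 0.58 for fibroblast and 0.47 for marrow stroma genes. They were -5.02 for tenocyte, -1.97 for skeletal muscle, -1.05 for Schwann cell and -0.16 for osteoblast genes. Endothelial genes had a median of -3.83, haematopoietic 1.06, mast cell -6.93 and erythroid -5.62, beside 0.36 over all genes that reached 1 CPM. The part of these cell types in the Hox differences below was not tested. ZsGreen stood at 444 CPM before and at 0 after culture, and the Y-linked Uty at 0.08 and 61.2 CPM, so donor and culture cannot be told apart in any difference below.

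Hox genes encode homeodomain transcription factors and lie in clusters named HoxA to HoxD, where the paralog number gives a gene's place along the cluster. During embryonic development genes of low paralog number become active first and mark anterior levels of the body, genes of middle number mark the thoracic level where ribs form, and genes of high number mark lumbar, sacral and tail levels and the distal limb. Mesenchymal cells of adult tissues keep much of this pattern, so that a set of active Hox genes is often read as the address from which a cell came.

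In the GRCm38 build the HoxA cluster lay at chr6:52155590-52260880 with 11 genes, HoxB at chr11:96194316-96368256 with 10, HoxC at chr15:102921103-103036852 with 9 and HoxD at chr2:74668310-74765142 with 9. RefSeq (GRCm38.p6) promoter windows, 250 bases before to 50 after a transcript start, were given for 22 of the 39 members. Their 24 windows held a median of 14.5 CG pairs, against 7 over 32851 promoters of all genes. The 250 bases before the start are shown for 4 members that the results return to, with CG pairs in capitals. Hoxa5 (chr6:52204588-52204837, minus strand) was among the leading Hox genes of both libraries, Hoxb4 (chr11:96318017-96318266, plus strand) and Hoxb8 (chr11:96281655-96281904, plus strand) belonged to the HoxB genes that were high after culture, and Hoxd8 (chr2:74704365-74704614, plus strand) was highest in small groups of cells.
Hoxa5: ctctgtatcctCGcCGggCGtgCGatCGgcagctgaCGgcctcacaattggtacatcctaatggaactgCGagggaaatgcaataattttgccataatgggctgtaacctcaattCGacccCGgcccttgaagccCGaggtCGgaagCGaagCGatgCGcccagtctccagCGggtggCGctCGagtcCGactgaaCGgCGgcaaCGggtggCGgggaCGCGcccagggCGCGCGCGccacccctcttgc
Hoxb4: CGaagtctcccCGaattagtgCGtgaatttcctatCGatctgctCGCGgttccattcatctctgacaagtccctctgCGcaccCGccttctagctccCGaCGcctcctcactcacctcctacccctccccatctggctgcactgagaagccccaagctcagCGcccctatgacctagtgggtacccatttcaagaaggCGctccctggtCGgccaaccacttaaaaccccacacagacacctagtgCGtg
Hoxb8: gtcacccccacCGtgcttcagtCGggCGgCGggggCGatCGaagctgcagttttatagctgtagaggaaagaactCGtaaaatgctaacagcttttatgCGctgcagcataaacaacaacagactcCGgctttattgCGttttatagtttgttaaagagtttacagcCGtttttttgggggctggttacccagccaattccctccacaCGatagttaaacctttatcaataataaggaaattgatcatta
Hoxd8: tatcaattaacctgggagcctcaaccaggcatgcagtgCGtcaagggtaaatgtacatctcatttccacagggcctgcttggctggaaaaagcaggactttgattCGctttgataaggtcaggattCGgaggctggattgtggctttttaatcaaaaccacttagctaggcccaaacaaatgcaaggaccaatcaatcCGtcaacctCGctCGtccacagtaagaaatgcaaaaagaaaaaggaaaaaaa
The Hoxa5 stretch held 28 CG pairs, the Hoxb4 stretch 14, the Hoxb8 stretch 12 and the Hoxd8 stretch 6. The letters TTTATNG, read on either strand and known as the preferred site of Cdx factors, occurred 3 times in the Hoxb8 stretch, at 199, 120 and 110 bases before the start. Over full windows they were in 2 of 24 Hox promoters (8.33%, Hoxb8 and Hoxd4) and in 10.9% of all promoters. The letters TGATTNAT, a composite site of Pbx and Hox proteins, were in 2 of 24 (8.33%, Hoxa2 and Hoxd11) and in 3.22% of all promoters. A match describes letters and not a bound site.

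After a filter on genes, UMIs and mitochondrial share, 11746 of 11896 primary and 5338 of 10798 cultured barcodes were kept, with 137148874 and 330129909 UMIs and a median of 10026.5 and 56864.5 UMIs per cell. The libraries shared 15 kept barcode sequences. A CPM value below is the summed and scaled count of a library, with an exact 95% Poisson interval that covers counting error only. A 3′ library counts a transcript at its end, so levels were not divided by gene length and the order of genes is an order of UMIs. Each group was a single library, so no difference could be set against a spread of replicates or tested. A log2 ratio is cultured over primary CPM.

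In both libraries paralogs 4 to 8 took most of the Hox UMIs. Hox UMIs numbered 47682 in the primary library, or 348 CPM (345 to 351), and 236413 in the cultured library, or 716 CPM (713 to 719), a log2 ratio of 1.04 (1.03 to 1.06). Paralogs 4 to 8 made up 86.2% of Hox UMIs in primary and 79.5% in cultured CDSCs. Paralogs 1 to 3 made up 10.9% and 10.5%, whereas paralog 9 stood at 2.63% and 9.17% and paralogs 10 to 13 at 0.304% and 0.840%. The lower share of paralogs 4 to 8 in culture thus depends on where the range was cut, since it leaves out paralog 9. The same 5 genes led both libraries in the same order, namely Hoxc8, Hoxa7, Hoxa5, Hoxc6 and Hoxa3. Hoxc8 alone, a gene that patterns thoracic vertebrae and ribs, gave 36.9% of primary and 26.9% of cultured Hox UMIs. In the next 5 places stood Hoxc5, Hoxc4, Hoxa2, Hoxc9 and Hoxb2 in the primary library and Hoxb9, Hoxb7, Hoxc9, Hoxa9 and Hoxc5 in the cultured library. The UMI-weighted mean paralog number was 6.37 (6.36 to 6.39) and 6.53 (6.52 to 6.54), so the address as a whole differed by less than 1 paralog place. Across the 30 members with over 3 counts in both libraries the levels had a Spearman correlation of 0.88, as a description across genes, which are not replicates and share each library's depth.

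**Figure D1:**
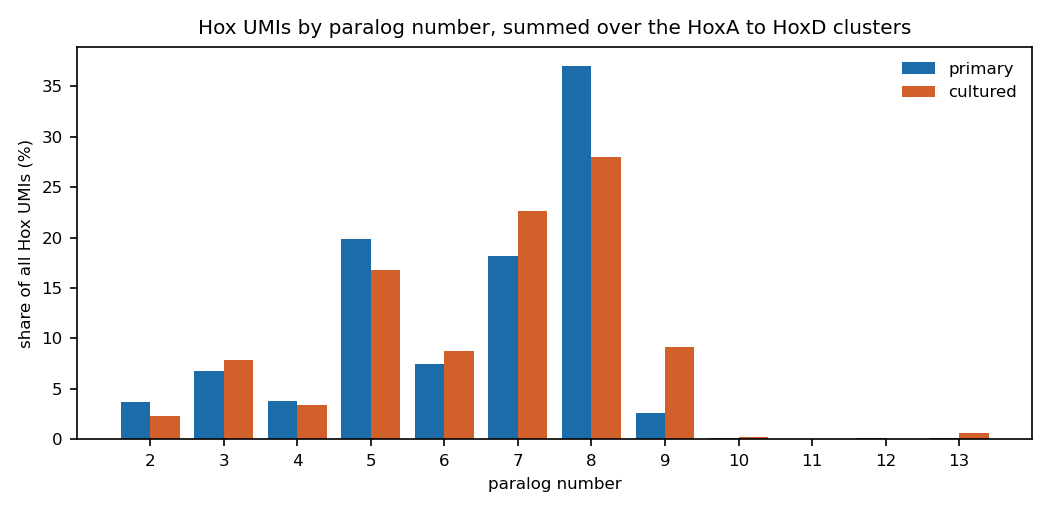
Share of all Hox UMIs (vertical axis, percent) by paralog number from 2 to 13 (horizontal axis), summed over the HoxA to HoxD clusters, with 1 bar for the primary and 1 for the cultured library. Paralog 8 is the highest bar in both libraries (37.1% and 28.0%), and paralog 9 is at 2.63% in primary and 9.17% in cultured CDSCs.

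Of the 39 members, 23 reached 1 CPM in either library, and 10 of these were higher by 4-fold or more in cultured CDSCs while 0 were lower by that much. The background over all 12839 genes that reached the same level was 12.6% higher and 7.48% lower by 4-fold or more. Of the 10 genes, 8 were under 1 CPM in primary cells and so entered only through the culture in which they were high. Such genes were 8 of the 23 members against 7.70% of all 12839 genes, and the counts and medians here are partly set by this choice. Among the 15 members that reached 1 CPM in primary cells, 2 (Hoxa9 and Hoxb7) were higher by 4-fold or more and 0 lower, beside 7.56% and 8.10% of all 11850 such genes. The median log2 ratio was 1.29 over the 23 Hox genes and 0.36 over the 12839 genes, and 22 of the 23 lay above 0 against 63.5% of all. By cluster, HoxB had 7 of its 8 measured genes past 4-fold (median log2 ratio 2.85, with 6 of the 7 under 1 CPM in primary cells), HoxA 2 of 9 (1.19) and HoxC 1 of 6 (0.88), while no HoxD gene reached 1 CPM. As summed levels, HoxA was at 150 and 346 CPM, HoxB at 12.3 and 83.2 CPM, HoxC at 185 and 285 CPM and HoxD at 0.525 and 1.31 CPM before and after culture. HoxB thus went from 3.54% to 11.6% of Hox UMIs, and HoxC from 53.3% to 39.9%.

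**Figure D2:**
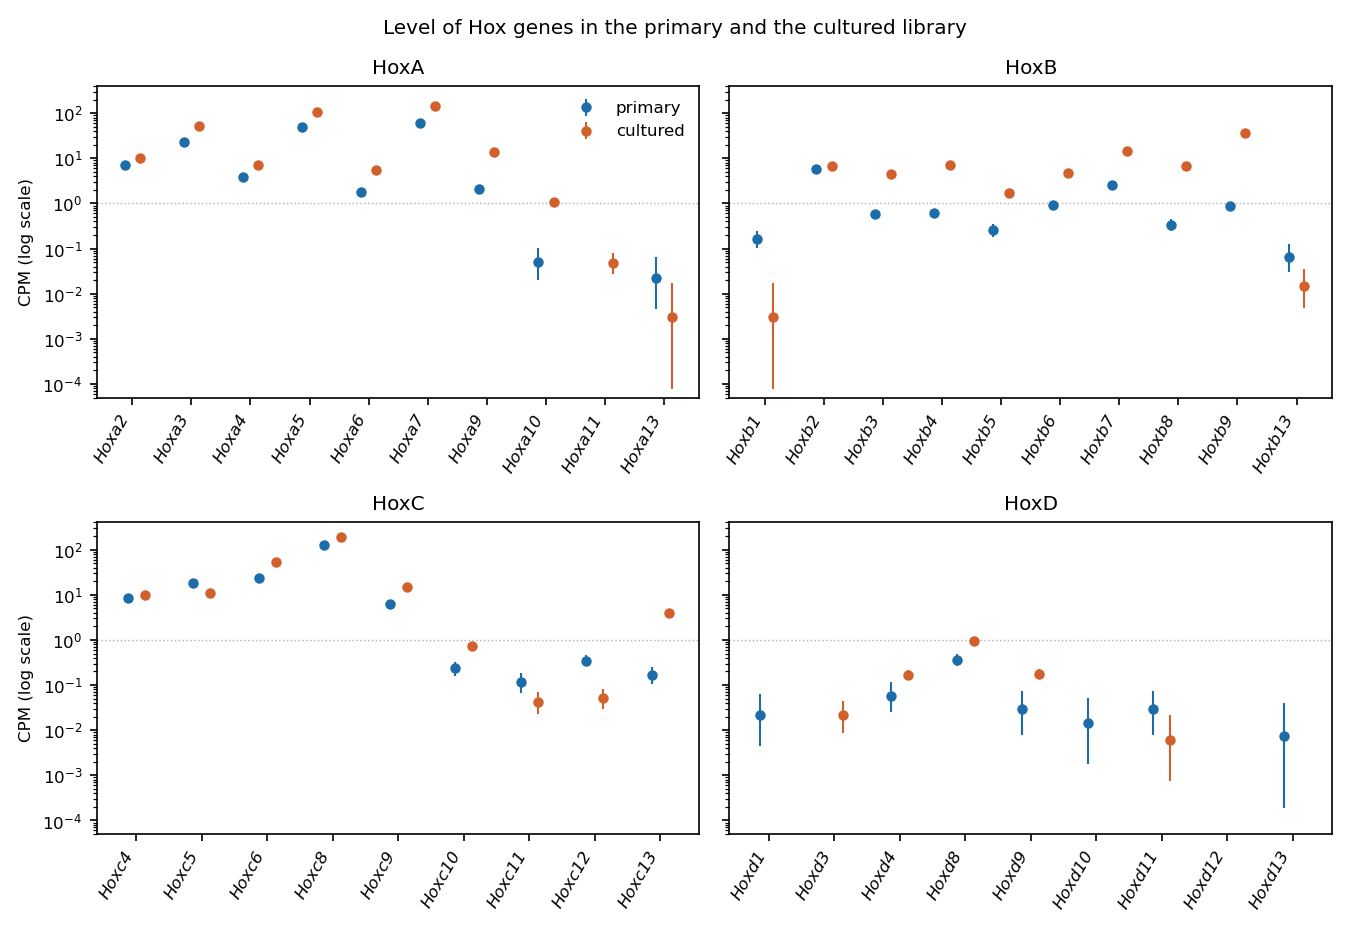
Level of 38 of the 39 Hox genes (vertical axis, CPM on a log scale) in the primary and cultured library, by Hox cluster and in the order of paralog number. Points are summed levels, bars are 95% Poisson intervals, genes without a UMI have no point, and the dotted line marks 1 CPM. HoxB genes from Hoxb3 to Hoxb9 lie well above their primary level in culture, whereas HoxD genes stay under 1 CPM in both libraries.

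In HoxA, 9 genes reached 1 CPM, and Hoxa7, Hoxa5 and Hoxa3 were the highest of them. Hoxa7, a thoracic gene, was at 60.4 CPM (59.1 to 61.7) in primary and 147 CPM (146 to 149) in cultured CDSCs. Hoxa5, which patterns the neck-to-thorax skeleton and the lung, was at 50.3 CPM (49.1 to 51.5) and 107 CPM (106 to 109). Hoxa3, best known from the thymus and parathyroid, was at 22.9 CPM (22.1 to 23.7) and 51.5 CPM (50.7 to 52.3). These 3 genes stood in the same order in both libraries and each was a little over 2-fold higher in the cultured library. The anterior genes were lower in level. Hoxa2, which sets the identity of the second pharyngeal arch, was at 7.06 CPM (6.62 to 7.52) and 9.91 CPM (9.57 to 10.3). Hoxa4, a gene of the neck vertebrae, was at 3.83 CPM (3.51 to 4.17) and 6.99 CPM (6.71 to 7.29). Their log2 ratios of 0.49 and 0.87 were below those of the genes at the other end of the cluster. Hoxa6, a thoracic gene, was at 1.76 CPM (1.54 to 1.99) and 5.41 CPM (5.16 to 5.66). Hoxa9, also known as a regulator of blood stem cells, was at 2.09 CPM (1.86 to 2.35) and 13.8 CPM (13.4 to 14.2), a log2 ratio of 2.72 (2.54 to 2.89). Hoxa10, whose paralog group suppresses ribs at the lumbar level, was at 0.0510 CPM (7 UMIs, 0.0205 to 0.105) and 1.09 CPM (360 UMIs, 0.981 to 1.21), a log2 ratio of 4.42 (3.36 to 5.74). Hoxa11 had 0 and 16 UMIs and Hoxa13, a gene of digits and the genital tract, 3 and 1. Along HoxA the log2 ratio and the paralog number had a Spearman correlation of 0.77 over 9 genes of the same 2 libraries. Hoxa10, with the highest ratio, entered only through its level in culture, so this correlation is partly set by that choice.

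HoxB was the cluster with the greatest contrast between the libraries. Hoxb9, which patterns ribs and sternum together with its paralogs, was at 0.875 CPM (0.725 to 1.05) in primary and 37.1 CPM (36.4 to 37.8) in cultured CDSCs, a log2 ratio of 5.41 (5.15 to 5.68) and the largest of the 23. Hoxb8, a gene of thoracic nerves and of myeloid progenitors, was at 0.335 CPM (0.246 to 0.447) and 6.76 CPM (6.49 to 7.05). Hoxb4, known for expanding blood stem cells when it is overexpressed, was at 0.612 CPM (0.489 to 0.758) and 7.05 CPM (6.77 to 7.34). The promoter stretches of these last 2 genes are those given above. Hoxb7, the leading HoxB gene after Hoxb2 in primary cells, was at 2.62 CPM (2.35 to 2.90) and 14.8 CPM (14.4 to 15.3). Hoxb3 was at 0.576 CPM (0.456 to 0.718) and 4.39 CPM (4.17 to 4.62). Hoxb5, which helps to set the position of the shoulder, was at 0.255 CPM (0.178 to 0.355) and 1.73 CPM (1.59 to 1.88). All of these were at least 4-fold higher in the cultured library, as was Hoxb6, with 0.926 CPM (0.772 to 1.10) and 4.68 CPM (4.45 to 4.92). Hoxb2, a hindbrain gene, was the exception, at 5.89 CPM (5.49 to 6.31) and 6.68 CPM (6.41 to 6.97). Its log2 ratio of 0.18 turned to -0.02 and -0.04 under the TMM and median-of-ratios scalings, so it has no stable direction. Both ends of the cluster were near background, with 22 and 1 UMIs for Hoxb1 and 9 and 5 for Hoxb13. HoxB was also where the libraries were least alike in profile, with a Spearman correlation of 0.60 over 9 genes against 0.95 in HoxA and 0.88 in HoxC, also over 9 each. Its mean paralog number was 4.28 (4.15 to 4.40) in primary and 7.01 (6.98 to 7.04) in cultured CDSCs, against 5.37 and 5.61 in HoxA and 7.32 and 7.50 in HoxC.

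In HoxC the gene of highest level was the same throughout. Hoxc8 was at 128 CPM (126 to 130) in primary and 192 CPM (191 to 194) in cultured CDSCs. Hoxc6, whose anterior limit lies near the start of the thorax, was at 23.2 CPM (22.4 to 24.0) and 52.6 CPM (51.8 to 53.3). Hoxc5, its neighbour, was the only one of the 23 genes with a lower level in culture, at 18.4 CPM (17.6 to 19.1) and 10.8 CPM (10.5 to 11.2), a log2 ratio of -0.76 (-0.84 to -0.69). The annotated Hoxc5 gene spans Hoxc6, Hoxc8, Hoxc9 and part of Hoxc10, and 5.37% of its exonic bases are shared with another gene on its strand, so some of its reads may not have been assigned to it. Such shares were 15.0% for Hoxa2, 8.70% for Hoxc10 and 8.01% for Hoxa3, whose gene spans Hoxa4 to Hoxa6, in the GRCm38 annotation used here. Whether Hoxc5 and Hoxa3 were also credited with reads from within their spans was not tested. Hoxc4, a gene of neck and upper thoracic vertebrae, was at 8.63 CPM (8.14 to 9.13) and 10.1 CPM (9.81 to 10.5). Hoxc9, which sets thoracic identity in motor neurons, was at 6.13 CPM (5.72 to 6.56) and 14.6 CPM (14.2 to 15.1). The far end of the cluster was almost silent with 1 exception. Hoxc13, known from hair follicles and nails, was at 0.168 CPM (23 UMIs, 0.106 to 0.252) and 4.03 CPM (1330 UMIs, 3.82 to 4.25), a log2 ratio of 4.59 (3.99 to 5.25). Between it and Hoxc9, Hoxc10 had 32 and 241 UMIs, Hoxc11 16 and 14, and Hoxc12 48 and 17. Hoxc13 was thus high in culture while its direct neighbours were not.

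HoxD, whose high-numbered genes build the limb, was close to off in both libraries. Hoxd8 held most of its UMIs, with 50 (0.365 CPM, 0.271 to 0.481) in primary and 309 (0.936 CPM, 0.835 to 1.05) in cultured CDSCs. Hoxd4 had 8 and 56 UMIs and Hoxd9 4 and 58. The 52.3% of exonic bases that Hoxd4 shares with genes on its strand, and the 62.3% that Hoxd3 shares, could have kept reads from being assigned to either. Hoxd3 had 0 and 7 UMIs, Hoxd1 3 and 0, Hoxd10 2 and 0, Hoxd11 4 and 2, Hoxd13 1 and 0, and Hoxd12 0 in both. The floor of 3 UMIs used for ratios is 0.0219 CPM in primary cells and 0.00909 CPM in cultured ones.

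**Figure D3:**
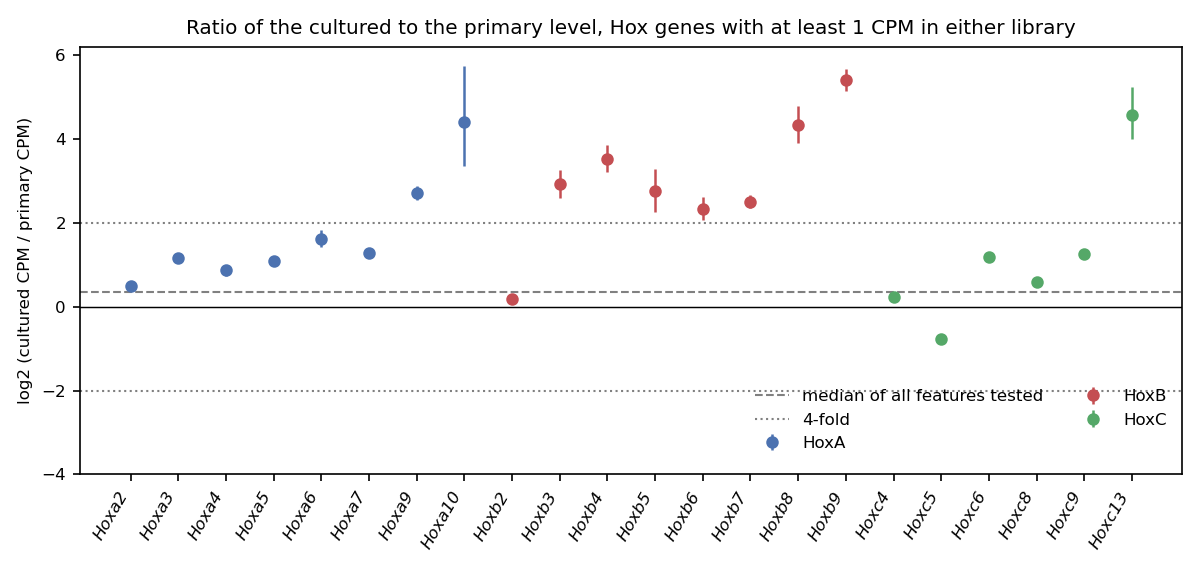
Log2 ratio of cultured over primary CPM (vertical axis) for 22 of the 23 Hox genes that reached 1 CPM, ordered by cluster and paralog number (horizontal axis), with 95% counting intervals. Hoxb9 is the highest at 5.41, Hoxc5 is the only point below 0 at -0.76, and Hoxb2 is the only HoxB gene under 4-fold.

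In single cells few Hox genes were seen at a time. With cells thinned to 5000 UMIs (787 primary and 795 cultured cells were too shallow), a cell held UMIs of a median of 1 Hox gene in the primary library (10959 cells, interquartile range 1 to 2) and of 2 in the cultured library (4543 cells, 2 to 4). Without thinning the medians were 2 and 9. At equal depth 21.2% of primary and 7.64% of cultured cells had no Hox UMI. Hoxc8 was seen in 44.3% and 55.7% of cells, Hoxa7 in 25.7% and 47.7%, Hoxa5 in 20.5% and 38.1%, and Hoxb9 in 0.401% and 13.4%. For background, the 9 cultured cells of a haematopoietic-like cluster, cells that a CD45- sort should have removed and that had a median of 35946 UMIs, held 168 Hox CPM (130 to 213), with 13 Hoxc8, 11 Hoxa7 and 0 Hoxb9 UMIs.

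Cells were clustered within each library with the Hox genes left out, so that a difference in Hox levels between cell clusters was not built in. All primary clusters but 1 were chondrocyte-like, and no cultured cluster of more than 9 cells could be named from the markers. Over the 10 primary clusters the summed Hox level lay between 257 and 469 CPM and the mean paralog number between 5.78 and 6.69. Over the 7 cultured clusters of at least 100 cells, without a shallow one (879 cells, median 1291 UMIs), they lay between 288 and 803 CPM and between 5.52 and 6.64. Hoxc8, Hoxa7 and Hoxa5 were the leading 3 Hox genes in all 17 of these clusters, in that order in 15 of them. At a clustering resolution of 1.0 the ranges were 256 to 482 CPM over 18 primary and 294 to 812 CPM over 12 cultured clusters. Left out as under 100 cells was a finer cultured cluster of 54 cells, all from cluster 6. Its mean paralog number was 5.20, with HoxA at 389 CPM and HoxC at 122 CPM.

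**Figure D4:**
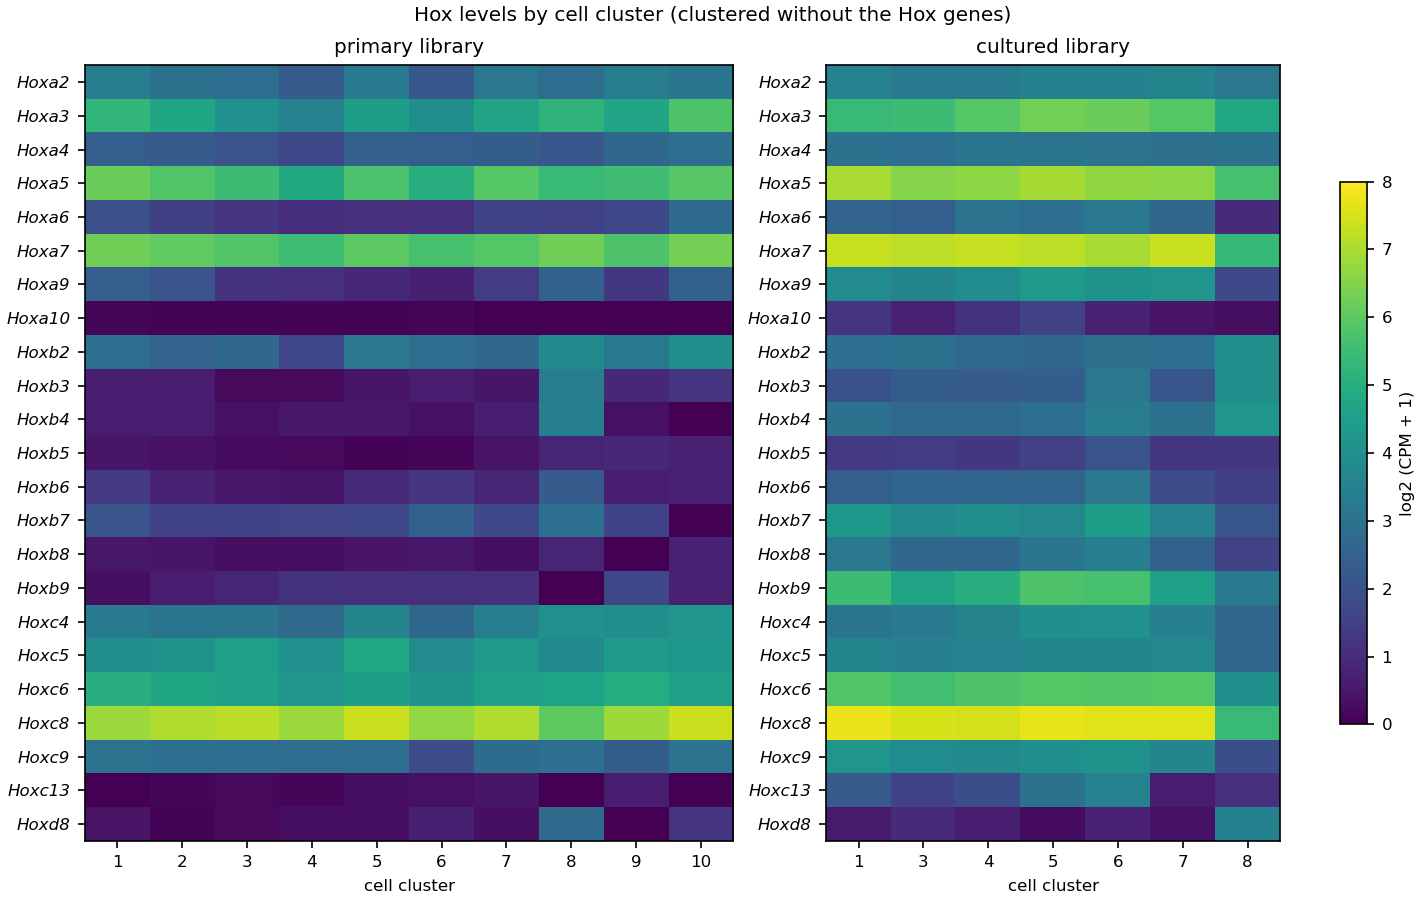
Level of 23 Hox genes (rows) in the cell clusters (columns) of the primary library, left, and of the cultured library, right, as log2 of CPM plus 1 in colour. Hoxc8, Hoxa7 and Hoxa5 are bright in nearly every column, primary cluster 8 and cultured cluster 8 stand apart by higher Hoxb3, Hoxb4 and Hoxd8, and cultured cluster 8 is also darker for Hoxc8 and Hoxa7.

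Among chondrocyte-like clusters of the primary library the differences were graded. Hoxa5 ran from 28.3 CPM (25.96 to 30.8) in cluster 4, with Slc22a4 among its leading genes, to 73.4 CPM (70.0 to 77.0) in cluster 1, led by Tll1, Clu and the joint lubricant gene Prg4. Hoxa3 was also lowest in cluster 4, at 10.8 CPM (9.35 to 12.4), and highest in cluster 10, at 54.5 CPM (43.4 to 67.6). HoxA genes made up 52.8% of Hox UMIs in cluster 1 and 36.3% in cluster 4. Hoxc5 was highest in cluster 5, led by the BMP antagonists Grem1 and Nog, at 27.0 CPM (24.8 to 29.4), against 14.4 CPM (12.9 to 16.1) in cluster 1.

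Primary cluster 8 (287 cells, 1.89% of UMIs) went its own way. It was unnamed, since its leading genes were mast cell genes such as Tpsb2 and Cma1 beside the endothelial Gpihbp1 and the fibroblast collagen Col1a1. It held 24 of 79 Hoxb3 UMIs (30.4%), 25 of 84 Hoxb4 UMIs (29.8%) and 15 of 50 Hoxd8 UMIs (30.0%). As levels these were 9.28 CPM (5.94 to 13.8), 9.66 CPM (6.25 to 14.3) and 5.80 CPM (3.25 to 9.56), against 0.409, 0.438 and 0.260 CPM over the other clusters. Hoxc8 was at its lowest there, at 64.2 CPM (54.8 to 74.7). Hoxb9 had 0 UMIs, but its interval of 0 to 1.43 CPM covers the level of the whole primary library. At the finer resolution, looked at after these values were seen, 25 of its cells formed an endothelial-like cluster led by Gpihbp1, Myct1 and Sox17. These cells held 12 of the 50 Hoxd8 UMIs, or 42.0 CPM (21.7 to 73.3), with 0.21% of all UMIs, while the finer cluster of 265 cells that took nearly all of the rest (262) had 1.26 CPM over the whole of HoxD. Col2a1, the collagen of chondrocytes, was at 26808 CPM in these endothelial-like cells, so free RNA or doublets could carry part of their Hoxc8 and Hoxa7 (14 and 18 UMIs), and this was not tested.

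Cultured cluster 8 (182 cells, 3.86% of UMIs) had the lowest mean paralog number of the 7, at 5.52 (5.45 to 5.59). Ptn and Thy1 were among its leading genes, and its summed Hox level was 288 CPM (279 to 298), against 651 to 803 CPM in the other 6. Hoxc8 was at 42.2 CPM (38.7 to 45.9) there and at 179 to 218 CPM in the others, and Hoxa7 was at 40.1 CPM (36.7 to 43.7) against 124 to 161 CPM. For Hoxc8 this level overlaps the 32.1 CPM (17.1 to 54.8) of the haematopoietic-like cells. The Hoxa7 interval of those cells likewise covers the Hoxa7 level of cluster 8. In contrast, several genes were highest in that cluster. Hoxb2 was at 14.5 CPM (12.5 to 16.8) against 5.43 to 7.16 CPM in the other 6, Hoxb3 at 14.6 CPM (12.6 to 16.9) against 3.04 to 7.96 CPM, and Hoxb4 at 17.1 CPM (14.9 to 19.5) against 5.86 to 9.20 CPM. Hoxd8 was at 10.4 CPM (8.67 to 12.3) against 0.19 to 0.95 CPM. The cluster held 42.7% of all cultured Hoxd8 UMIs (132 of 309), 29 of 58 Hoxd9 UMIs and 23 of 56 Hoxd4 UMIs (41.1%). Hoxa4 showed no such contrast, at 6.99 CPM (5.61 to 8.60) against 6.62 to 7.53 CPM. Cluster 8 thus had more of Hoxb2 to Hoxb4 and of the HoxD genes, and less of the thoracic genes, than the cells around it.

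The same cluster also differed in other genes of position. Tbx5, the selector of forelimb and heart, was at 25.7 CPM (23.0 to 28.7) and at 0.06 to 2.34 CPM in the other 6 clusters. Hand2, a gene of the posterior limb bud and heart, was at 13.8 CPM against 0.04 to 0.98 CPM and Shox2, a gene of proximal limb bones, at 12.8 CPM against 0.13 to 0.98 CPM. Alx1, a craniofacial and mesenchymal homeobox gene, was at 9.34 CPM there and between 16.5 and 72.2 CPM elsewhere. These genes were not kept out of the clustering, so their difference is a description of the cluster. Cluster 7 stood out by Barx1 (167 CPM) and Pax1 (44.6 CPM), a gene of the sclerotome that forms vertebrae and ribs, with a Hox level of 706 CPM. Hoxc13 was highest in cluster 6, led by Csmd1 and the collagenase Mmp13, at 10.7 CPM (9.47 to 12.0), and lowest in cluster 7, at 0.517 CPM (0.267 to 0.903).

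Within the cultured library Hoxb9 had the largest ratio of variance to the Poisson value among members with at least 100 UMIs. In cells with at least 5000 UMIs it was seen in 40.5% of cells, where a single level shared by all cells at their own depths would give 84.0%, and its variance was 8.93 times the Poisson value, with up to 51 UMIs in a cell. Hoxc8 had a ratio of 4.52, Hoxa7 of 4.49 and Hoxb7 of 2.52. This ratio grows with the level of a gene, so it does not rank unevenness between genes of unlike level. Hoxc10 had a ratio of 2.27 on 241 UMIs, where Hoxb9 had 12191 UMIs. In the primary library the ratios lay between 1.03 and 1.68, at a lower level of the genes. Hoxb9 was therefore read in cells against its absence, a split chosen after these values were seen. With cells thinned to 20000 UMIs, and shallower cells left out, 1228 held at least 1 Hoxb9 UMI and 2928 held 0.

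Over all cultured cells, those with Hoxb9 had more of the other HoxB genes from Hoxb2 to Hoxb8, and their HoxA and HoxC sums differed far less. Without Hoxb9 itself, HoxB summed to 76.3 CPM in cells with it and to 31.6 CPM in cells without it, a ratio of 2.42 (2.27 to 2.58). HoxA stood at 361 and 336 CPM (ratio 1.08, 1.05 to 1.10) and HoxC at 294 and 270 CPM (1.09, 1.06 to 1.12). Hoxb8, the nearest neighbour of Hoxb9, had the largest ratio, at 14.5 and 3.26 CPM (4.44-fold), and Hoxb7 at 24.6 and 9.41 CPM (2.62-fold). Farther along came Hoxb6 at 7.74 and 2.92 CPM (2.65-fold), Hoxb5 at 3.50 and 1.14 CPM (3.06-fold), Hoxb3 at 7.41 and 3.48 CPM (2.13-fold), Hoxb2 at 9.49 and 5.52 CPM (1.72-fold) and Hoxb4 at 9.0 and 5.84 CPM (1.54-fold). The leading genes of the other clusters had ratios between 1.02 and 1.24. Hoxa7 was at 148 and 145 CPM (1.02-fold), Hoxc8 at 192 and 183 CPM (1.05-fold), Hoxa3 at 58.4 and 52.9 CPM (1.10-fold), Hoxa5 at 111 and 100.5 CPM (1.11-fold) and Hoxc6 at 59.9 and 48.1 CPM (1.24-fold). The Y-linked Uty was at 65.1 and 66.2 CPM, and whether the cells came from several animals was not tested. Within cell clusters 1 and 3 to 7 the HoxB ratio was 2.54, 1.94, 2.41, 3.14, 3.21 and 1.58, while HoxA and HoxC ratios lay between 0.97 and 1.21. Cluster 8 differed, since in its 20 cells that held Hoxb9 the HoxB ratio was 0.75 (0.43 to 1.24), the HoxA ratio 1.68 (1.32 to 2.13) and the HoxC ratio 2.28 (1.67 to 3.07). Cells are not replicates and all came from 1 library, so these ratios describe that library.

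**Figure D5:**
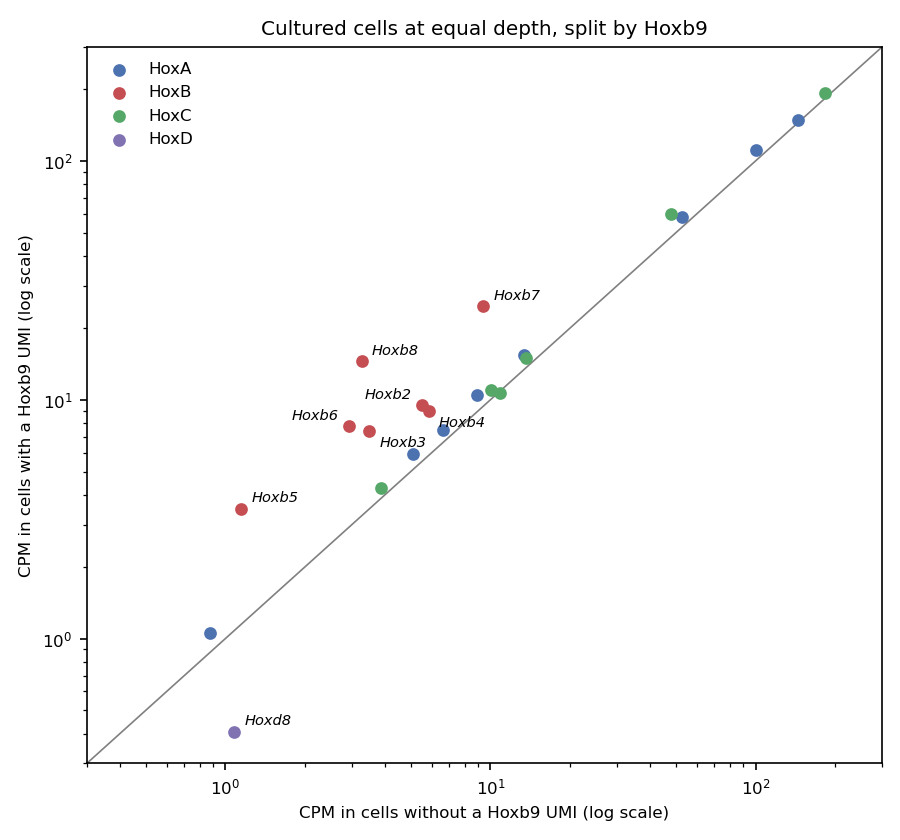
Level of 22 Hox genes in cultured cells with at least 1 Hoxb9 UMI (vertical axis, CPM, log scale) against its level in cells without one (horizontal axis, CPM, log scale), at 20000 UMIs per cell. The line marks equal levels. HoxB genes lie above it by 1.54-fold to 4.44-fold, HoxA and HoxC genes lie nearer to it, and Hoxd8 lies below it.

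Pairs of Hox genes were also read in both directions. For each ordered pair, the level of a gene in cells with a UMI of the other was set against its level in cells without, at 20000 UMIs. Within HoxB 56 of 56 ordered pairs lay above 0 with a median log2 ratio of 1.09. Within HoxA it was 64 of 72 (median 0.32) and within HoxC 29 of 30 (0.22). Between clusters the medians were 0.18 for HoxA with HoxC (86 of 108 above 0), 0.06 for HoxA with HoxB (81 of 144) and -0.02 for HoxB with HoxC (45 of 96). The HoxC pairs were thus hardly above those of HoxA with HoxC. Pairs share cells and genes, and each unordered pair enters in both orders. In the primary library, at 5000 UMIs, the HoxA pairs had a median of 0.51 (45 of 56 above 0), the HoxC pairs of 0.09 (16 of 20), and only 2 ordered HoxB pairs had enough UMIs. Between clusters the primary medians were 0.18 for HoxA with HoxB (26 of 32), 0.15 for HoxA with HoxC (59 of 80) and -0.24 for HoxB with HoxC (5 of 20), so the pairs within HoxC lay below those of HoxA with either of the others.

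Proteins that bind DNA together with Hox factors, of the Pbx, Meis and Pknox families, were present in both libraries. Of 9 listed, Pbx4 (0.55 and 3.35 CPM) and Meis3 (0.70 and 8.97 CPM) were at least 4-fold higher in culture. Pknox2 (33.2 and 7.82 CPM) was at least 4-fold lower, and the median log2 ratio was 0.28. The shares of all genes past 4-fold were 12.6% higher and 7.48% lower. Pbx4 and Meis3 were under 1 CPM in primary cells and entered only through their level in culture. Pbx2 was at 12.6 and 14.6 CPM and Pbx3 at 105 and 131 CPM in the primary and the cultured library. Meis1 stood at 123 and 138 CPM, Meis2 at 183 and 382 CPM and Pknox1 at 18.8 and 20.4 CPM. The median ratio of the partners was thus below that of the Hox genes and near that of all genes. The Hox median is partly set by genes that entered only through culture.

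Genes of the Polycomb group, which keeps silent Hox genes off, and of the trithorax group, which keeps active Hox genes on, had a median log2 ratio of 0.09 over 27 genes. Of these 1 was at least 4-fold higher in culture (Cbx2, 0.31 and 1.49 CPM) and 1 at least 4-fold lower. Over all genes the shares were 12.6% and 7.48%, and Cbx2 entered only through its level in culture. Ezh2, the enzyme that writes the Polycomb mark, was at 39.6 and 42.0 CPM, Eed at 29.9 and 32.5 CPM and Rbbp4 at 98.2 and 99.4 CPM. Ezh1 (11.9 and 10.0 CPM), Ring1 (24.2 and 21.7 CPM), Pcgf2 (10.8 and 8.92 CPM), Men1 (10.1 and 8.17 CPM), Wdr5 (21.3 and 16.5 CPM), Rnf2 (38.0 and 27.0 CPM) and Jarid2 (55.6 and 34.0 CPM) were lower in culture by less than 4-fold. Higher by less than 4-fold were Suz12 (42.8 and 68.3 CPM), Rbbp7 (121 and 150.1 CPM), Bmi1 (8.72 and 20.7 CPM), Cbx6 (24.1 and 34.5 CPM), Phc2 (42.9 and 63.3 CPM), Phc3 (24.5 and 43.2 CPM), Kmt2a (60.8 and 100.1 CPM), Kmt2b (16.9 and 21.1 CPM) and Ash2l (16.5 and 32.7 CPM). Kdm6a (63.1 and 30.6 CPM) and Kdm6b (82.3 and 31.4 CPM), which remove the Polycomb mark, were lower in culture.

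Among upstream regulators of Hox genes, such as the retinoic acid and Gdf11 pathways, 12 of 18 reached 1 CPM. By 4-fold or more 3 were higher and 1 was lower in culture, beside 12.6% and 7.48% of all genes. Aldh1a2 and Gdf11 were under 1 CPM in primary cells and entered only through their level in culture. Aldh1a2, which makes retinoic acid, was at 0.15 and 9.38 CPM, Gdf11, a signal for the trunk-to-tail transition, at 0.87 and 6.77 CPM, and Gmnn, a DNA replication and chromatin regulator, at 3.1 and 17.4 CPM. Zbtb16, which can repress Hox genes, was at 61.7 and 0.24 CPM. The retinoic acid receptor Rarg, at 156 and 44.8 CPM, and Nr6a1, at 65.2 and 32.4 CPM, were lower by less than 4-fold. The Cdx genes, whose letters occur before Hoxb8, had at most 6 UMIs in either library.

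Other transcription factors of position were read from a list of 29, of which 17 reached 1 CPM. Of these 12 were higher and 2 lower by 4-fold or more in culture, with a median log2 ratio of 3.70, beside the 12.6% and 7.48% of all genes given above. All of the 12 but Tbx15 were under 1 CPM in primary cells and entered only through their level in culture, so this count and median are partly set by that. Genes of the head and pharyngeal arches such as Barx1 (0.15 and 23.6 CPM), Dlx1 (0.04 and 2.03 CPM) and Dlx2 (0.58 and 3.27 CPM) were among the higher ones. So were limb and girdle genes, with Tbx5 at 0.01 and 1.62 CPM, Lhx9 at 0.07 and 1.14 CPM, Shox2 at 0.20 and 1.07 CPM, Emx2 at 0.05 and 4.69 CPM and Tbx15 at 1.44 and 18.8 CPM. Trunk mesoderm genes were Pax1 (0.05 and 5.10 CPM), Pax9 (0.17 and 1.59 CPM) and Tbx18 (0.13 and 1.84 CPM). Lower by at least 4-fold were Lmx1b (1.31 and 0.09 CPM), a gene of the dorsal limb, and Meox2 (3.96 and 0.94 CPM), a gene of somites and of endothelium. Alx1 (176 and 49.6 CPM) and Dlx5 (1.22 and 0.47 CPM) were lower and Meox1 (0.73 and 1.12 CPM) was higher by less than 4-fold. Alx1 was the highest of these in both libraries. Among noncoding genes of the Hox clusters Gm28230 had 0 and 1 UMI, and the others were not analysed here.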

How the data were processed

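Single-cell RNA sequencing covered primary and cultured mouse CDSCs, with 1 library each, for which 20000 viable cells per sample had been prepared. The deposited matrices held raw UMI counts, whole numbers for each gene in each barcode, made by the authors with Cell Ranger 7.0.0, which called the barcodes. The study aligned reads to the GRCm38 genome, while the submitters' processing notes name GRCm39 as well, so the gene models behind the counts may differ from the GRCm38 ones used here for coordinates and overlaps. The annotation release and the use of intronic reads were not given in the sources used here. Groups came from the treatment labels.

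Barcodes were kept from 500 genes and 1000 UMIs upward if mitochondrial genes gave no more than 10% of UMIs. Scrublet called 0 and 1 doublets by its automatic threshold and had not worked, so no doublets were removed, and leaving out the 1118 and 461 highest-scored cells was an alternative. Counts were summed per library and scaled to CPM (Python 3.11.15, numpy 2.4.6, scipy 1.17.1, pandas 2.3.3). A ratio was given where a count was over 3, with lower counts raised to 3. Poisson, Clopper-Pearson and conditional ratio intervals were exact, at 95%. Cells were thinned without replacement to 5000 UMIs, or 20000 UMIs for splits within cultured cells. Clustering used scanpy 1.11.5 and leidenalg 0.10.2 (resolution 0.5, 20 neighbours, 10 principal components, 2000 variable genes without Hox genes), and the finer one resolution 1.0. Scaling factors came from edgeR 4.0.16. The steps were tested on simulated data. Coordinates were those of GENCODE M21 (GRCm38) by gene ID, and promoters those of RefSeq.

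Every Hox gene with at least 1 CPM in either library was named, as were cofactor, Polycomb and trithorax genes with at least 10 CPM and other positional factors with at least 1 CPM. Some genes that meet this rule are not reported here. Genes at least 4-fold apart are named beyond this rule, and upstream regulators and cluster examples were chosen after their values were seen. The members and lists were chosen with earlier results of these data known. Alternatives were other cell filters, weights, scalings, minimum levels, folds and depths. With 1 library per group, counting error mattered for rare transcripts only, and the spread between animals, preparations and runs could not be estimated.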

Additional observations from a re-analysis of the deposited data

Results flagged for a closer look

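The cultured barcodes that the cell filter left out, which enter no comparison above, also held Hox UMIs. These 5460 barcodes had a median of 775 UMIs and together 3614 Hox UMIs, or 573.8 CPM (555 to 593), against 716 CPM in the kept cultured cells and 162 CPM (112 to 226) in the 150 primary barcodes left out. Hoxa7 was their highest member with 684 UMIs, 24 of the 39 members had over 3 UMIs, and the mean paralog number was 6.09.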

How the results depend on the processing

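The numbers of Hox genes at least 4-fold higher (10) and lower (0) in culture were the same without presumed doublets, with every deposited barcode, with at least 5000 UMIs per cell, between chondrocyte-like and unnamed deep clusters, and under TMM and median-of-ratios scaling. In these settings 23 Hox genes were compared, and of all genes 10.3% to 13.1% were higher and 7.27% to 8.75% lower. With each cell at equal weight 9 of 22 Hox genes were higher, beside 12.5% of all genes. At 10 CPM or more 3 of 11 were higher, beside 10.6% of all. At a 2-fold limit 17 of 23 were higher, beside 28.9%. With no minimum level 11 of 34 were higher and 3 lower, beside 11.6% and 11.2%. A setting chosen after seeing the data took the 15 Hox genes with at least 1 CPM in the primary library. Of these 2 were higher and 0 lower, beside 7.56% and 8.10% of all such genes. The log2 ratio of the summed Hox level, 1.04 in the main setting, was 0.98 with each cell at equal weight, 0.85 under TMM and 0.82 under median-of-ratios scaling, which lower every log2 ratio by 0.20 and 0.22. Of 161 alternative values for single genes 0 were reversed past counting error, and Hoxb2 alone changed sign. The median number of Hox genes per cell was 0 at 2000 UMIs, 2 at 10000 UMIs and 2 without thinning in primary cells. In cultured cells it was 1 at 2000 UMIs, 4 at 10000 UMIs, 9 without thinning and 3 at 5000 UMIs without presumed doublets. No paired analysis was possible because each group had 1 sample. Levels under 1 CPM rest on few UMIs, and the donors, the culture and the library preparation cannot be told apart.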

Other observations

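Other Hox genes were also read as splits of the cultured cells at 20000 UMIs, chosen after their values were seen. In the 877 cells with a Hoxa9 UMI, Hoxa10 was at 2.22 CPM against 0.58 CPM in the other cells and Hoxa7 at 192 against 133 CPM. In the 273 cells with a Hoxc13 UMI, Hoxc9 was at 21.8 against 13.5 CPM and Hoxb9 at 53.9 against 35.7 CPM. The 71 cells with a Hoxd8 UMI differed from the rest, with Hoxc8 at 57.8 against 188 CPM, Hoxa7 at 52.1 against 147 CPM and Hoxb9 at 13.4 against 37.3 CPM, while Hoxb3 was at 16.9 against 4.43 CPM. These values follow those of cultured cluster 8, which held 42.7% of the Hoxd8 UMIs.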
